A study of Mus musculus with 8 samples.

Results

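The BCL-2 family decides in most cells whether the mitochondrial route of apoptosis is opened. Here 10 of its genes were followed in macrophages of mouse skin wounds, out of 55414 genes in the deposited table. They were the pro-survival genes Bcl2l1, Mcl1, Bcl2a1b, Bcl2a1d and Bcl2, the pore-forming effectors Bax and Bak1, and the BH3-only genes Bcl2l11, Bid and Pmaip1. The members were picked by name, and Bcl2l1 had drawn attention because it was lower at day 3, so the difference between the days is given for every member as a description and not as a test. Macrophages were collected from the wound bed 1 day and 3 days after injury, with 3 libraries (day 1 a to c) and 5 libraries (day 3 a to e), to compare the early with the later wound. Cells were bound to F4/80 beads, F4/80 being a surface protein of mouse macrophages, and each library pooled 6 wounds from 3 mice, so no library is a single animal. The protocol describes 6 samples per time point, of which the 8 libraries were analysed here. The sources do not tell if pools shared mice, so every standard error rests on the spread between pools, not between animals. The strain, genotype, age and sex of the mice, and any treatment beyond the wound, are not given in the sources used here.

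Bcl-xL (from Bcl2l1), MCL-1, A1 (from the Bcl2a1 genes) and BCL-2 hold the mitochondrial outer membrane intact by binding the pro-death members. BAX and BAK, once activated, assemble into pores that release cytochrome c and start the caspase cascade. The BH3-only proteins set this off: BIM (from Bcl2l11) and BID can engage BAX and BAK and block the pro-survival proteins, and NOXA (from Pmaip1) binds chiefly MCL-1 and A1. Myeloid cells lean on MCL-1 and A1, which are short-lived proteins, and on Bcl-xL to varying degrees. All values below are RNA levels and say nothing of protein amounts or of how many cells died.

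Counts per library totalled 41566151 to 60289310. Levels are given as normalised CPM, counts scaled to the library total and its TMM factor. The floor of detection was set at 3 counts, which is 0.05 to 0.0752 CPM, for counting error only. The summed level of 12 macrophage markers, led by Apoe and Lyz2, ran from 33400 to 44600 CPM at day 1 and from 63400 to 75100 CPM at day 3. Apoe alone ran from 5170 to 13200 CPM at day 1 and from 26100 to 29400 CPM at day 3. Lyz2 ran from 6690 to 9880 CPM and from 15800 to 23300 CPM. The other macrophage markers were higher at day 3, overlapped between the days or were lower. Fcgr1, named after its values were seen, was lower, at 716 to 975 CPM and 343 to 491 CPM. The 8 monocyte markers, led by Thbs1 and Ccr2, ran from 6450 to 8330 CPM at day 1 and from 3510 to 4530 CPM at day 3. Thbs1 was lower at day 3, at 3360 to 4340 CPM and 1440 to 2640 CPM. Ccr2 overlapped between the days, at 912 to 1560 CPM and 799 to 1590 CPM. The 12 neutrophil markers, led by S100a8 and S100a9, stood at 845, 2270 and 4050 CPM in libraries a, b and c of day 1 and at 3760 CPM in day 3 b, against 447 to 684 CPM in the other day 3 libraries. Many genes peaked in day 1 c: 19.0% of the 15371 genes that passed the default filter of edgeR had their highest level there, and 10.9% were at least 3 times the higher of day 1 a and b. In day 1 c 73.0% of counts from 2 to 20 were even, against 81.3% to 86.0% in the others.

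Among the pro-survival genes, Bcl2l1 had the lowest level at day 3 relative to day 1 over all 8 libraries, and Bcl2 had it without day 1 c. Bcl2l1 (ENSMUSG00000007659, GRCm39 chromosome 2, 152622588 to 152673648, minus strand) encodes Bcl-xL, the survival protein that erythroid cells and neurons depend on. It stood at 44.1, 61.4 and 213 CPM in libraries a, b and c of day 1, and at 11.8, 26.3, 21.0, 27.4 and 23.0 CPM in day 3 a to e. Every day 3 library was below every day 1 library, and day 1 c was far above the other day 1 libraries, 4.84 times the lowest. The fitted log2 fold change (day 3 minus day 1, here and throughout) was -2.28 ± 0.48 (SE), and -1.28 ± 0.33 without day 1 c. The estimate was below 0 with and without that library, and its size depended on it. In bulk samples, fewer cells of a type and less RNA per cell cannot be told apart. The summed monocyte markers (8330 CPM) and neutrophil markers (4050 CPM) were also highest of the 8 libraries in day 1 c, and their part in the Bcl2l1 values was not tested.

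Mcl1 (ENSMUSG00000038612, chromosome 3, 95566099 to 95570487, plus strand) encodes MCL-1, which most myeloid cells need to live. Among the pro-survival members, Mcl1 was by far the most abundant transcript. It stood at 713, 562 and 519 CPM in libraries a, b and c of day 1, and at 625, 817, 665, 679 and 624 CPM in day 3 a to e. The days overlapped, the highest day 1 library lay above 4 of the 5 day 3 libraries, and the log2 fold change was 0.19 ± 0.17. Day 3 b, where neutrophil markers were high too, was the highest of all 8. Bcl2 (ENSMUSG00000057329, chromosome 1, 106465908 to 106642004, minus strand), the founding member of the family and the survival gene of lymphocytes, was expressed at a low level. It stood at 6.07, 5.93 and 1.69 CPM in libraries a, b and c of day 1, and at 1.22, 1.44, 2.66, 1.03 and 0.435 CPM in day 3 a to e, with a log2 fold change of -1.75 ± 0.89, or -2.15 ± 0.89 without day 1 c. Here day 1 c was not the high library: it lay among the day 3 values, while day 1 a and b stood above them all.

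The 2 A1 genes among the members had estimates of opposite sign. Bcl2a1b (ENSMUSG00000089929, chromosome 9, 89081262 to 89089880, plus strand) stood at 16.4, 34.8 and 34.9 CPM in libraries a, b and c of day 1, and at 55.0, 60.6, 39.9, 42.7 and 45.4 CPM in day 3 a to e. All day 3 libraries were above all day 1 libraries, with a log2 fold change of 0.76 ± 0.30. Bcl2a1d (ENSMUSG00000099974, chromosome 9, 88605338 to 88613967, minus strand), a second A1 copy that encodes a closely related survival protein, stood at 48.0, 34.4 and 59.7 CPM in libraries a, b and c of day 1, and at 43.5, 51.2, 26.8, 25.4 and 28.4 CPM in day 3 a to e. For Bcl2a1d the days overlapped, since day 3 a and b lay within the day 1 range, and the log2 fold change was -0.44 ± 0.31.

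**Figure D1:**
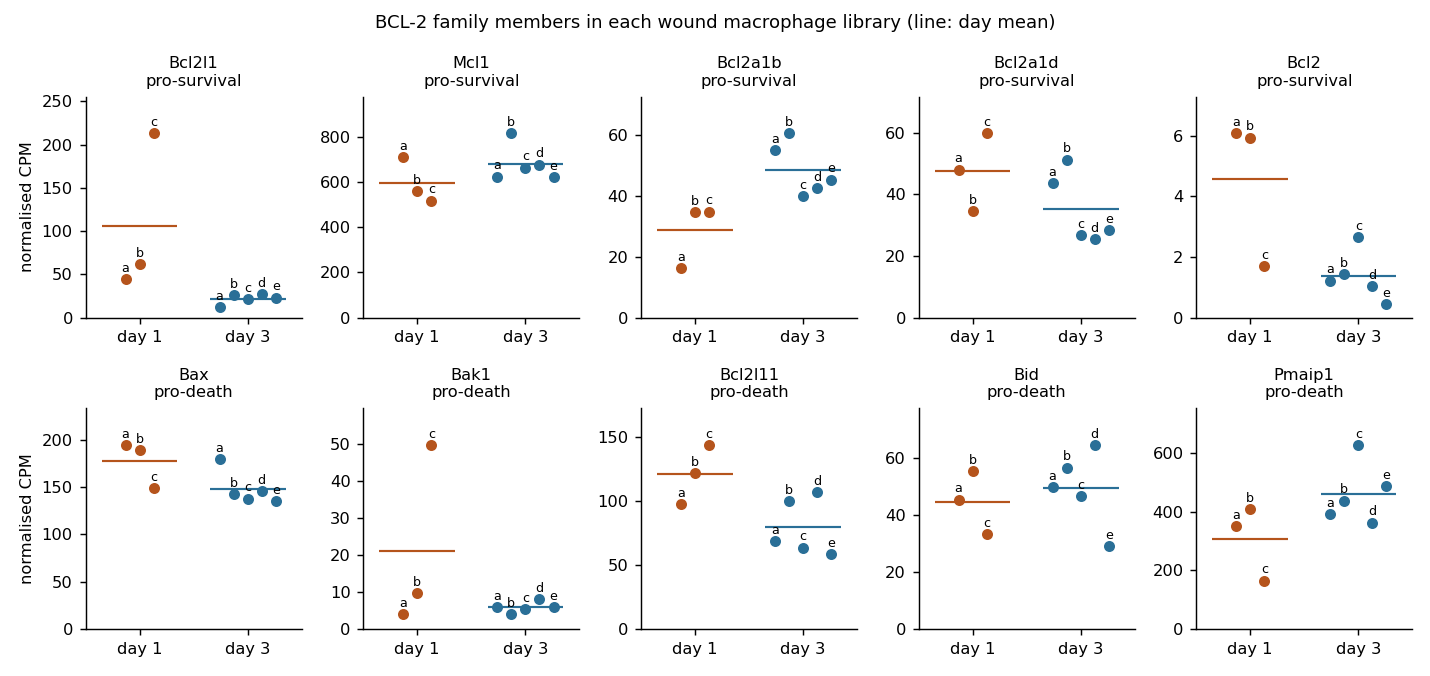
Normalised CPM of each of the 10 members (y axis, a scale from 0 per gene) in the day 1 and day 3 libraries (x axis), each point 1 library with its letter and each line the mean of a day. Bcl2l1 in day 1 c stands at 213 CPM, far above its day 3 range of 11.8 to 27.4 CPM, while Mcl1 overlaps between the days.

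The A1 copies are recent duplicates, so the stretch upstream of their start sites is shown to let a reader see how far they resemble each other in regulatory sequence. Each was taken from RefSeq promoter windows on GRCm38.p6, 5′ to 3′ on the gene's strand, ending before the annotated start. Capitals mark, in order, letters matching a loose AP-1 pattern (TGANTCA, where N is any base and here is A) and a PU.1 motif (GAGGAAGT). PU.1 is the master transcription factor of macrophages.
Bcl2a1a (chr9:88956720-88956853, plus strand): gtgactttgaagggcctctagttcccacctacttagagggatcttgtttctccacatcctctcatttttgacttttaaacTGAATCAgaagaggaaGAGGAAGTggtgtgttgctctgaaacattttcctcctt
Bcl2a1b (chr9:89199029-89199162, plus strand): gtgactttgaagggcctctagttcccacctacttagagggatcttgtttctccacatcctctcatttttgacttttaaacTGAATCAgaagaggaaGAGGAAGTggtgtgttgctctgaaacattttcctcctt
Bcl2a1d (chr9:88731917-88732044, minus strand): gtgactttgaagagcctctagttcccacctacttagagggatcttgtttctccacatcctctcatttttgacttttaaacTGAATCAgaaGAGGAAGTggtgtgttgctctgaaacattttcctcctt

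The stretches of Bcl2a1a and Bcl2a1b were identical over 134 bases. Bcl2a1d differed from both by 1 mismatch and a gap of 6 bases, so that 3 rather than 9 bases lie between its AP-1 and PU.1 letters. Over all 32851 promoter windows of the same length, 300 bases, the AP-1 letters occurred in 7.81% and the PU.1 letters in 3.2%, on either strand. A match is a description of the letters only. Of the 10 members, 9 had at least 1 window, 12 in all with those of Bcl2a1b and Bcl2a1d, and outside the A1 genes few of the motifs searched were found. The Bcl2l1 windows, 3 in number for 3 annotated starts, held 1 NF-kappaB match, a motif found in 4.51% of windows. Bak1 held 1 PU.1 match, Bcl2l11 1 FOXO match (TGTTTAC, 3.65%) and Bax 2 E-box matches (CACGTG, 7.15%). No STAT (TTCNNNGAA, 8.3%) or CRE (TGACGTCA, 1.79%) match was found in any window of a member.

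The transcripts are nearly as alike as the upstream stretches shown, which limits how the copies can be told apart. Those stretches are parts of the windows of 300 bases, and the likeness of the whole windows was not measured. In the GENCODE transcripts, Bcl2a1a and Bcl2a1b agreed at 97.9% of aligned positions, Bcl2a1b and Bcl2a1d at 93.9%, and Bcl2a1a and Bcl2a1d at 93.7%. Of stretches of 50 bases, 42.4% of those in Bcl2a1b, 32.3% in Bcl2a1a and 20.5% in Bcl2a1d occurred in no other of the 3 copies, and for stretches of 100 bases the shares were 68.9%, 56.5% and 45.3%. Reads from the remaining stretches could not be placed on 1 copy, and the read length was not known here. Bcl2a1b also shared 401 of its 817 exon bases with the predicted gene Gm29094, and bases claimed by 2 genes are left uncounted under the recorded settings, so its level per base is a low estimate. The counts of each copy are therefore uncertain. Their sum does not depend on which copy a read was placed on, but it still lacks the reads left uncounted. Since the copies lose unequal parts, the sum can also shift with their shares.

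The sum of Bcl2a1a, Bcl2a1b and Bcl2a1d was nearly level between the days, while the shares of the copies differed. It was 103 ± 24.3 CPM at day 1 and 104 ± 31.4 CPM at day 3 (SD, n = 3 and 5), and its log2 fold change was 0.02 ± 0.26. By library it stood at 84.4, 93.3 and 130 CPM at day 1 and at 117, 154, 79.2, 87.5 and 82.9 CPM at day 3, so day 3 b was highest. The share of the 3 copies' counts that fell on Bcl2a1b was 19.5%, 37.3% and 26.8% in day 1 a, b and c, and 47.1%, 39.4%, 50.4%, 48.8% and 54.8% in day 3 a to e, and the days did not overlap. For the closest pair, day 1 b and day 3 b, the exact binomial 95% intervals ran from 36.0% to 38.6% and from 38.3% to 40.5%. They overlapped at their ends, which does not decide if the pair differed beyond counting error, and that difference was not tested. These intervals take reads as independent and are too narrow where both mates of a pair were counted. Bcl2a1d gave the opposite picture, at 56.9%, 36.9% and 45.9% at day 1 and at 37.3%, 33.3%, 33.8%, 29.0% and 34.2% at day 3, with an overlap at 36.9% and 37.3%. The remaining copy in the table, Bcl2a1c, was near the floor, at 0.637 ± 0.394 CPM at day 1 and 0.826 ± 0.479 CPM at day 3.

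**Figure D2:**
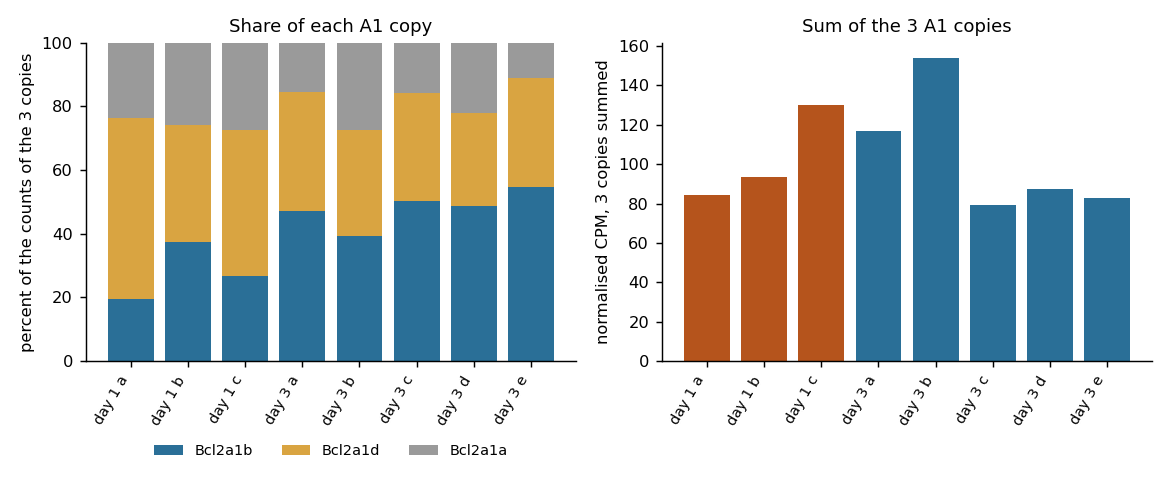
Left, the percentage (y axis) of the counts of 3 near-identical A1 copies assigned to each copy in each library (x axis); right, their summed normalised CPM by library, day 1 in orange and day 3 in blue. Bcl2a1b takes 19.5% to 37.3% at day 1 and 39.4% to 54.8% at day 3, while the sum spans 79.2 to 154 CPM.

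Of the pore-forming effectors, Bax differed little between the days and Bak1 was high in a single library. Bax (ENSMUSG00000003873, chromosome 7, 45111121 to 45116322, minus strand) stood at 195, 189 and 149 CPM in libraries a, b and c of day 1, and at 180, 143, 138, 146 and 135 CPM in day 3 a to e, with a log2 fold change of -0.26 ± 0.16. Day 1 c and day 3 a crossed, so the days overlapped. Bak1 (ENSMUSG00000057789, chromosome 17, 27238784 to 27247983, minus strand) stood at 4.06, 9.61 and 49.9 CPM in libraries a, b and c of day 1, and at 5.83, 4.10, 5.47, 8.04 and 5.92 CPM in day 3 a to e. Apart from day 1 c, every library lay between 4.06 and 9.61 CPM. The log2 fold change of Bak1 was -1.85 ± 0.69 with all libraries and -0.23 ± 0.61 without day 1 c. Bak1 shares 437 exon bases with Ggnbp1 on the other strand, whose own count was at most 121 in any library.

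Of the BH3-only genes, Pmaip1 was the most abundant per kilobase of exon in every library. Pmaip1 (ENSMUSG00000024521), which encodes NOXA, the partner that marks MCL-1 for degradation, stood at 350, 409 and 165 CPM in libraries a, b and c of day 1, and at 392, 438, 629, 363 and 488 CPM in day 3 a to e. Day 1 c was low and day 3 c high, the remaining libraries of both days overlapped, and the log2 fold change was 0.58 ± 0.30, or 0.28 ± 0.22 without day 1 c. Bcl2l11 (ENSMUSG00000027381, chromosome 2, 127967958 to 128004467, plus strand), which encodes BIM, the BH3-only protein released when growth factors are withdrawn, stood at 97.5, 122 and 144 CPM in libraries a, b and c of day 1. At day 3 it stood at 68.7, 100, 63.6, 107 and 58.8 CPM, and day 3 b and d reached into the day 1 range. The log2 fold change of Bcl2l11 was -0.60 ± 0.25. Bid (ENSMUSG00000004446, chromosome 6, 120868891 to 120893814, minus strand), whose protein is cut by caspase 8 downstream of death receptors, had the smallest difference of them. It stood at 45.3, 55.3 and 33.1 CPM at day 1 and at 49.7, 56.5, 46.5, 64.5 and 29.0 CPM at day 3, with a log2 fold change of 0.14 ± 0.28. Its sign turned without day 1 c, at -0.03 ± 0.30, and 628 of its 3550 exon bases are shared with Bcl2l13 on the other strand.

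Read together, the members showed no common direction. All 10 passed the default filter, and 3 pro-survival and 3 pro-death members had a fold change below 0, as did 57.3% of all genes tested. Their median log2 fold change was -0.35, against -0.17 over all 15371 genes tested. The ranges of the days stood apart for 2 members, Bcl2a1b above and Bcl2l1 below, where 5.22% of all genes stood apart above and 8.84% below. The quasi-likelihood test of edgeR with Benjamini-Hochberg adjustment called 0 of the 10 at an adjusted p under 0.05, where 0.0130% of all genes were called. At an unadjusted p under 0.05 there were 4 (15.8% of all genes), DESeq2 called 1 (6.77%) and limma voom 0 (5.41%). Under a stricter filter, which asks for 1 CPM throughout at least 1 of the days and for 5 CPM on average, 9 of the 10 were tested, Bcl2 being too low, and 1 was called, Bcl2l1, where 1.79% of 8142 genes were called. Since the list was put together with the Bcl2l1 difference in view, these counts carry no weight for the list. In that stricter fit the edgeR adjusted p of Bcl2l1 was 0.0423, and it was 0.0975 without day 1 c and 0.0623 to 0.12 when any of the day 3 libraries was left out.

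**Figure D3:**
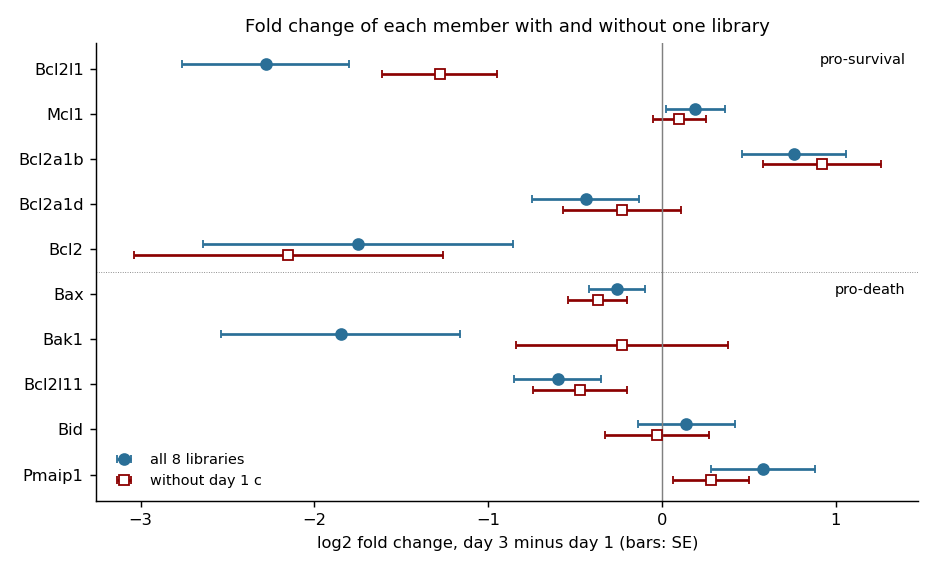
Log2 fold change (x axis, day 3 minus day 1, bars are the SE of the edgeR fit) of each member (y axis), with all 8 libraries in blue circles and without day 1 c in open squares. Bcl2l1 moves from -2.28 to -1.28 and Bak1 from -1.85 to -0.23, while the other members move less.

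Day 1 c touched members on both sides. It held the highest of the 8 levels for 4 members (Bcl2l1, Bcl2a1d, Bak1 and Bcl2l11), where 19.0% of all tested genes peaked there, and the lowest for 2, Mcl1 and Pmaip1. For 2 members, Bcl2l1 and Bak1, it was at least 3 times the higher of day 1 a and b, and 10.9% of all tested genes met the same criterion. Without it, the sign of the default edgeR estimate stayed for 9 members, Bid being the exception.

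Levels can be set between genes only per length, and on the scale of CPM per kilobase of exon Mcl1 ranked first on both days. At day 1, Mcl1 stood at 175 ± 29.8 CPM per kb, above Bax at 113 ± 15.8 and Pmaip1 at 113 ± 46.6 (SD, n = 3), whose ranges overlapped each other. Bcl2a1d (54.9 ± 14.7), Bcl2a1b (35.1 ± 13.0), Bcl2l1 (23.2 ± 20.3), Bcl2l11 (15.1 ± 2.88), Bid (12.6 ± 3.12) and Bak1 (8.81 ± 10.4) followed, and each overlapped its neighbour. Only Mcl1 above Bax and Bak1 above Bcl2 (0.498 ± 0.272) stood apart from the next gene at day 1. At day 3 Mcl1 led, at 183 to 239 CPM per kb, followed by Pmaip1 (169 ± 38.3), Bax (94.2 ± 11.4), Bcl2a1b (59.6 ± 10.7) and Bcl2a1d (40.6 ± 13.5), each with its SD (n = 5). Bid (13.9 ± 3.74), Bcl2l11 (9.92 ± 2.77), Bcl2l1 (4.77 ± 1.35), Bak1 (2.44 ± 0.588) and Bcl2 (0.148 ± 0.0892) came after. At day 3, neighbours overlapped in 4 places: Mcl1 with Pmaip1, Bcl2a1b with Bcl2a1d, Bid with Bcl2l11, and Bcl2l1 with Bak1. The scale takes the full exon length, although bases shared with another gene were left uncounted. These were 401 of 817 bases in Bcl2a1b and 628 of 3550 in Bid. They were also 192 of 1576 in Bax, at least 437 of 2407 in Bak1 and 558 of 9157 in Bcl2. Reads from stretches common to the A1 copies could not be placed either. The places of the A1 genes, Bid, Bax, Bak1 and Bcl2 are therefore uncertain, also that of Bcl2a1b below Bax. By its mean, Bcl2l1 was in the sixth place at day 1 and in the eighth at day 3, and the difference in place came from day 1 c. In day 1 a and b it stood at 9.62 and 13.4 CPM per kb, already below Bcl2l11 (12.1 and 15.2) and Bid (12.8 and 15.6), whereas in day 1 c it stood at 46.5.

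Summed over the members as CPM, without scaling to length, the ratio of survival to death transcripts overlapped between the days. The 5 pro-survival genes summed to 785 ± 74.8 CPM at day 1 and 789 ± 96.0 CPM at day 3, and the 5 pro-death genes to 673 ± 123 and 745 ± 79.8 CPM (SD, n = 3 and 5). The log2 ratio of pro-survival to pro-death was 0.26, -0.17 and 0.61 in day 1 a, b and c, and 0.08, 0.37, -0.22, 0.17 and 0.01 in day 3 a to e. Each day held at least 1 library below 0, and the difference of the day means, -0.15, was smaller than the pooled SD within days, 0.29. The ratio rests on the large members: without Mcl1 the difference was -0.84, without Bcl2l1 it was 0.02, and without Pmaip1, an alternative chosen after seeing the data, it was 0.38. Scaled to length, the pro-survival sum was 289 ± 25.3 CPM per kb at day 1 and 305 ± 42.6 at day 3. The pro-death sum was 262 ± 52.7 and 290 ± 30.4 CPM per kb. Per kilobase, Mcl1 made up 60.9% ± 11.1 of the pro-survival sum at day 1 and 65.7% ± 4.02 at day 3, and Bcl2l1 7.8% ± 6.3 and 1.58% ± 0.464. On the pro-death side, Pmaip1 went from 41.6% ± 10.4 to 57.9% ± 7.4 and Bax from 43.5% ± 3.71 to 32.9% ± 5.51 per kilobase. In day 1 c alone Bcl2l1 held 15.0% of the pro-survival sum and Bak1 10.2% of the pro-death sum per kilobase. The sums and shares per kilobase also take the full exon length, with the limit given above for the A1 genes, Bid, Bax, Bak1 and Bcl2.

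**Figure D4:**
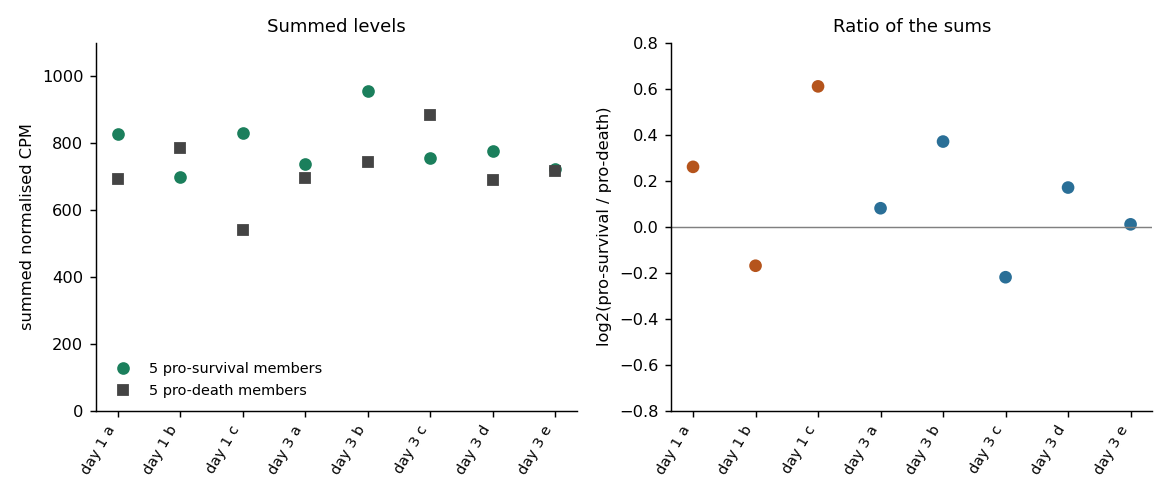
Left, summed normalised CPM (y axis) of the 5 pro-survival (circles) and 5 pro-death members (squares) in each library (x axis); right, log2 of their ratio, day 1 in orange and day 3 in blue. The ratio lies between -0.22 and 0.61, and the days overlap.

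The genes whose level across libraries was most like that of a member were found by Pearson's r of log2 CPM over the 8 libraries, among 8142 genes. Closest to Bcl2l1 were Tgm2 (r = 0.982), Slc9a3r1 (0.98), Uba1 (0.977), Uck2 (0.975) and Plec (0.975). Tgm2 encodes a transglutaminase that macrophages use in clearing dying cells, and it stood at 84.3, 105 and 264 CPM in libraries a, b and c of day 1 and at 36.4, 68.5, 51.3, 53.9 and 70.2 CPM at day 3. Uba1 encodes the main ubiquitin-activating enzyme. All 5 peaked in day 1 c, and over the 7 libraries without it their r to Bcl2l1 was between 0.918 and 0.963. Among those closest to Mcl1 were Zfp131 (0.966) and Gnl2 (0.934). These correlations are descriptions, since the libraries share the day and day 1 c. Among the other members, Bak1 (0.824) and Bcl2l11 (0.81) were most like Bcl2l1, and without day 1 c Bak1 was at 0.258 and Bcl2l11 at 0.735.

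The genes around the family were taken from 7 lists, and under the default filter the edgeR test with Benjamini-Hochberg adjustment called 0 of their 91 tested genes. At an unadjusted p under 0.05 there were 22 of the 91 (15.8% of all genes), DESeq2 called 13 (6.77% of all genes) and limma voom 5 (5.41% of all genes). In the stricter fit 2 were called, 1 among 12 death receptor and adaptor genes and 1 among 14 p53 pathway genes, where 1.02% of all genes were called as lower. Tnfrsf1a, which encodes the main receptor for TNF, fell from a mean of 138 ± 58.4 CPM to one of 51.6 ± 7.46 CPM (SD, n = 3 and 5). Its log2 fold change was -1.38 ± 0.26, with an edgeR adjusted p of 0.0317. It stood at 137, 79.6 and 196 CPM at day 1 and at 42.0, 45.4, 55.3, 56.0 and 59.3 CPM at day 3, with no overlap. Plk3, a stress kinase of the polo family, fell from a mean of 120 ± 55.7 CPM to one of 24.5 ± 12.8 CPM. Its log2 fold change was -2.26 ± 0.41, with an edgeR adjusted p of 0.0307. It stood at 68.1, 114 and 179 CPM at day 1 and at 15.9, 29.5, 14.2, 18.2 and 44.7 CPM at day 3, again with no overlap. Without day 1 c the edgeR adjusted p was 0.0627 for Tnfrsf1a, at a log2 fold change of -1.03, and 0.0643 for Plk3, at -1.87. Leaving out day 3 libraries in turn gave 0.0539 to 0.0967 for Tnfrsf1a, so all of these lost the call, and 0.0419 to 0.093 for Plk3, where the call was kept only without day 3 b. In the default fit the adjusted p values were 0.0727 and 0.0725.

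Beyond these, none of the list genes was called by edgeR. Death receptors and adaptors had a median log2 fold change of -0.55 over 13 tested genes and of -0.32 without day 1 c, and for 4 of them (Tnfrsf1a, and Tradd, Ripk1 and Traf2, named after their values were seen) the day 3 libraries all lay below day 1, as for 8.84% of all genes. Tnfaip3, the NF-kappaB brake A20 in the same list, was at 347 ± 189 CPM at day 1 and 280 ± 68.8 CPM at day 3. The p53 list had a median of 0.13 over 16 genes, with Plk2 at 731 ± 336 and 1420 ± 182 CPM. Caspases and apoptosome genes had a median of -0.07 over 17 genes: Casp8, the initiator caspase of the death receptors, stood at 206 ± 34.3 and 196 ± 42.8 CPM, and Vdac2, a mitochondrial channel that holds BAK, at 228 ± 63.7 and 252 ± 32.9 CPM. The inhibitor of apoptosis genes had a median of -0.04 over 9 genes, with Birc3 at 260 ± 49.6 and 201 ± 49.8 CPM and Xiap, the caspase inhibitor, at 58.9 ± 14.1 and 57.3 ± 11.9 CPM.

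The lists of further pro-survival and pro-death genes reach beyond the BCL-2 family, to genes such as Bag1 and Tmbim6. Their 9 pro-survival genes had a median log2 fold change of -0.32 and their 7 pro-death genes one of 0.33. Both depended on single libraries: the first was -0.13 without day 1 c, and the second was -0.15 without day 1 a, 0.05 without day 3 b and 0.01 under the stricter filter. Tmbim6, an endoplasmic reticulum protein that guards against stress-induced death, stood at 2490 ± 631 CPM at day 1 and 2000 ± 81.7 CPM at day 3. Bag1, a co-chaperone that binds BCL-2, stood at 63.4, 30.4 and 226 CPM in libraries a, b and c of day 1 and at 32.9, 14.9, 24.5, 10.3 and 33.1 CPM at day 3. Its log2 fold change was -2.20 ± 0.60 and -1.01 without day 1 c, and as with Bcl2l1 the highest level was in day 1 c. Bnip3 and Bnip3l, which act in mitochondrial clearance, stood at 236 ± 80.5 and 296 ± 160 CPM, and at 114 ± 23.6 and 210 ± 44.0 CPM. For Bnip3l all day 3 libraries were above all day 1 libraries, and it was not called by edgeR in either fit (adjusted p = 0.0833 and 0.0644).

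The cytokine survival signalling list, with growth factor receptors and the STAT, NF-kappaB and FOXO factors known to act on family members, had a median of -0.73 over 20 genes, the lowest of the 7 lists with all libraries. Without day 1 c it was -0.06, above the -0.32 of the death receptors and the -0.15 of the inhibitors of apoptosis. Of the 20 genes, 16 had their highest level in day 1 c, against 19.0% of all genes. Csf2rb, the shared beta chain of the GM-CSF, IL-3 and IL-5 receptors, stood at 525, 463 and 536 CPM at day 1 and at 304, 458, 291, 269 and 240 CPM at day 3. This receptor was nearly level in the day 1 libraries, and its highest level, in day 1 c, was little above that of day 1 a. All day 3 libraries were below all day 1 libraries, as for 8.84% of all genes. Nfkbia, the NF-kappaB inhibitor that NF-kappaB itself induces, stood at 947, 1800 and 3750 CPM at day 1 and at 2030, 2640, 1230, 1410 and 1610 CPM at day 3. The part of day 1 c and of cell composition in these values was not tested.

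**Figure D5:**
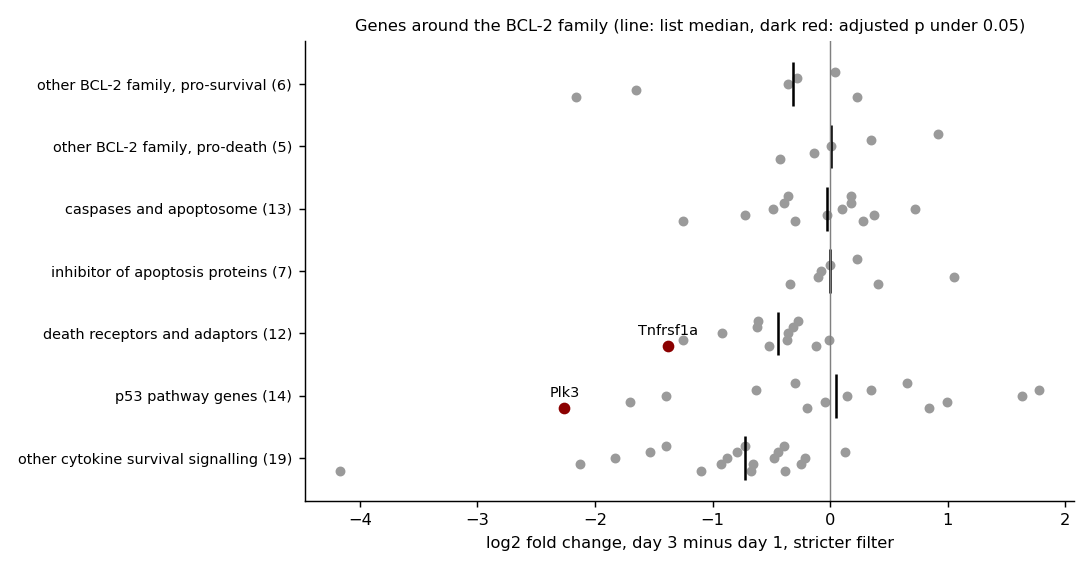
Log2 fold change (x axis, day 3 minus day 1) of each gene of the 7 lists (y axis, number tested under the stricter filter in brackets), each point 1 gene and each black line the median of a list. Only Tnfrsf1a and Plk3, in dark red, were called by edgeR in this fit, at -1.38 and -2.26.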

How the data were processed

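RNA was measured by bulk sequencing in 8 pools of F4/80-selected macrophages. The authors deposited raw counts per gene, made with featureCounts 1.6.0 on Ensembl release 106 of GRCm39 per the file headers, whose recorded command holds no option for strand, read pairs or reads with several positions. The submitters' processing notes also name Trimmomatic and DESeq2, and no source used here names an aligner. Symbols were matched for 52081 of 55414 genes (94.0%), and 0 columns belonged to other samples. Low counts were mostly even, so both mates may have been counted and a halved table was an alternative. Column letters follow the sample titles, while alignments in the recorded command carry partly other letters, so letters are names.

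Genes were kept with filterByExpr (minimum count 10), TMM-scaled and tested with edgeR's quasi-likelihood F test, two-sided, Benjamini-Hochberg adjusted over all genes, threshold 0.05; the stricter filter is given beside it. The groups followed the titles. Each SE of an edgeR fold change was the estimate, without its sign, divided by the square root of F. Its dispersion was partly shared over all genes. Alternatives were DESeq2, limma voom, RLE, library totals, other filters and thresholds, halved counts, each library left out and letters a to c with a block. Named genes were all members, genes of 7 lists called in either fit or else the most abundant until 2 were named, the 5 and 3 genes most like Bcl2l1 and Mcl1, and the 2 most abundant of each marker list that the text uses. An item that this rule names is not reported here. Members and lists were chosen with earlier results of these data known. Fits were tested on simulated data. The tools were edgeR 4.0.16, DESeq2 1.42.0 and limma 3.58.1 in R 4.3.3, and pandas 2.3.3, scipy 1.17.1, Biopython 1.88 and matplotlib 3.10.9 in Python 3.11.15. Promoter windows came from RefSeq (GRCm38.p6) and transcripts from GENCODE M21.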

Additional observations from a re-analysis of the deposited data

Results flagged for a closer look

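A library was picked out where its gap to the nearest of the other day 3 libraries, divided by the range of the 5, passed Dixon's criterion; chance does so in about 1 in 20 groups, and 27 groups of values were checked. Among members, Mcl1 was high in day 3 b at 817 CPM and Bax was high in day 3 a at 180 CPM. The pro-survival sum was high in day 3 b, at 957 CPM, and the pro-death sum in day 3 c, at 883 CPM. Day 3 b was also high in neutrophil markers, at 3760 CPM, in keratinocyte markers, at 29.5 CPM, and in dendritic cell markers, at 156 CPM.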

How the results depend on the processing

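The number of genes called by edgeR depended on the setting, and the cause was not tested beyond the change in genes or libraries that each setting makes. With the default filter 2 genes were called, against 1041 with DESeq2, 831 with limma voom, 47 with halved counts, 1347 without a filter on low counts, 146 with the stricter filter and 733 at an adjusted p of 0.1. Leaving out 1 library gave 0 to 31, and 1977 to 2877 at an unadjusted p under 0.05. With the stricter filter 146 were called, against 731 with DESeq2, 558 at an adjusted p of 0.1, 1347 without a filter and 2 with the default filter, and 0 to 390 with 1 library left out (1375 to 1910 at an unadjusted p under 0.05). In the libraries a to c alone, 0 genes were called with and without a replicate block in either filter, and at an unadjusted p under 0.05 the block gave 1343 against 1660 genes (default) and 859 against 1128 (stricter). No label says that the letters pair libraries, same-letter deviations from the day means correlated at 0.0697, 0.00774 and 0.0566, and day 1 b was closer to day 3 a (0.0216) than to day 3 b. The stricter-fit edgeR call of Bcl2l1 was lost with limma voom (adjusted p = 0.0632), without day 1 c (0.0975) and without each of day 3 a to e in turn (0.0623 to 0.12). The survival to death log2 ratio differed between the days by -0.15, by -0.84 without Mcl1 and by 0.38 without Pmaip1, and by -0.35 to 0.04 with 1 library left out. Of the member fold changes recomputed, 309 stayed within 1 SD between libraries of the same day and 8 moved beyond it: Bcl2l1 and Bak1 without day 1 c, and Bcl2a1b and Bcl2a1d once the copies were summed, in either filter. Bcl2, at 23 to 356 counts per library, had the lowest mean level of the members. With halved counts its log2 fold change in the default filter was -1.73, against -1.75.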

Other observations

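Day 1 c also stood apart in genes of the cytokine survival list that lie outside the rule for named genes and were chosen after their values were seen. Cebpb, a transcription factor of emergency myelopoiesis and macrophage activation, stood at 35.5, 32.8 and 1750 CPM in libraries a, b and c of day 1, and at 27.2 to 35.6 CPM in the day 3 libraries. Its log2 fold change was -4.21 with all libraries and -0.06 without day 1 c. Socs3, the feedback inhibitor of IL-6 and G-CSF signalling, stood at 33.3, 44.4 and 474 CPM in libraries a, b and c of day 1, and at no more than 84.3 CPM in the day 3 libraries. Its log2 fold change was -1.44 ± 0.72 with all libraries and 0.80 without day 1 c, so its sign rests on that library. In the same list, 6 of the 20 genes were at least 3 times the higher of day 1 a and b in day 1 c, where 10.9% of all genes tested met that criterion.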
